A study of Mus musculus with 12 samples.

Results

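Fibroblasts grown on plastic with serum carry thick actin bundles that contract. The genes behind those bundles, together with the transcription factors that read the state of actin and of cell tension, were examined here in mouse embryonic fibroblasts and in cells labelled as neural stem cells. The set holds 47 genes, taken by name: 4 contractile actins, 10 proteins that bind the thin actin filament, 5 myosin motor genes, 13 filament cross-linkers and adhesion proteins, the serum response factor gene Srf with 2 cofactor genes, 6 genes for YAP, TAZ and the TEAD factors, and 6 known YAP targets. A probe set, the summary of the short probes lying along a transcript, was assigned to a gene where the deposited annotation gave it that single symbol, with older names such as Cyr61 and Ctgf matched as aliases. All 47 genes were measured, out of 17103 genes tested.

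The 12 arrays (Affymetrix Mouse Gene 1.0 ST) fall into 4 groups of 3: wild-type fibroblasts (MEF, replicates 1, 3 and 5), wild-type neural stem cells (NSC, replicates 1, 2 and 3) and induced neural stem cells of the sets iNSC1 and iNSC2 (replicates 1, 2 and 3 each). The neural stem cells and both induced sets grew in a basal medium to which EGF (20 ng/ml), heparin (2 µg/ml) and FGF-2 (20 ng/ml) were added. The fibroblasts were kept in DMEM plus 10% fetal bovine serum. Serum is known to stimulate SRF and YAP, and in every comparison with MEF the cell type and the medium cannot be told apart. All cells were rinsed in medium lacking serum before they were collected. The labels do not give the strain or age of the animals, or the way the induced cells were made. They also do not say what separates iNSC1 from iNSC2, or whether the arrays of a group came from separate cultures. Each p-value therefore sets a difference against the spread between arrays within the groups. That spread may not include the variation between cultures. All readings are log2 values, array medians lay between 4.31 and 4.44, and arrays of one group correlated at 0.9871 to 0.9942 across genes.

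The labels were checked against marker genes. All 8 fibroblast markers, among them Col1a1 (-6.65 in NSC minus MEF), were lower in NSC and in iNSC than in MEF. Of all genes, 9.96% and 10.9% were called lower. Of 10 neural stem cell markers, 3 (30%) were higher in NSC than in MEF and 0 in iNSC by limma at the threshold used below. The shares of all genes called higher were 8.72% and 8.21%. At an unadjusted p under 0.05, 5 and 5 of the markers were higher. Here and below, counts at an unadjusted p are given without the share of all genes that passed it. The 3 called in NSC were Pax6 (1.16), Olig2 (1.11) and Sox1 (1.02), and they differed by 0.61, 0.23 and 0.89 in iNSC. Pax6 and Olig2 averaged only 4.93 and 4.59 in NSC. Msi1 (0.70), Hes5 (0.25), Gfap (0.13) and Fabp7 (0.12) differed in NSC without a call. Nes (-0.36) and Slc1a3 (-0.19) were also not called there, and their differences had the opposite sign. Sox2, a defining factor of neural stem cells, read 4.50 ± 0.046 in MEF, 4.58 ± 0.12 in NSC, 4.56 ± 0.057 in iNSC1 and 4.42 ± 0.091 in iNSC2 (SD, n = 3). Pou5f1, a factor of pluripotent and germ cells, read 3.54 ± 0.26 in MEF against 12.89 ± 0.020, 12.98 ± 0.025 and 13.01 ± 0.033 in the other 3 groups, in the same order. Only part of the neural list thus bears out the label in NSC. The Sox2 and Pou5f1 readings, and that of Nes in NSC, do not. NSC and iNSC therefore stand below for the labels of the arrays only.

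A pair of linked circuits is represented. In the first, monomeric actin holds the cofactors MRTF-A and MRTF-B (genes Mkl1 and Mkl2) in the cytoplasm; when actin polymerises they enter the nucleus and join SRF on the CArG box, a DNA element found in front of many actin, tropomyosin, calponin and myosin genes. In the second, the Hippo kinases hold YAP and TAZ (genes Yap1 and Wwtr1) outside the nucleus; in spread, tense cells these enter and join a TEAD factor on sites with the core GGAATG, where Ctgf and Cyr61 are the classical targets. Both circuits are known to be active in cultured fibroblasts, and both act mainly through the location of the cofactors, which an expression array does not measure.

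The promoters were searched for the elements these factors read. RefSeq windows of the 250 bases before each start (build GRCm38.p6) were at hand for 39 of the 47 genes, 53 windows in all. They are printed here for genes whose readings were lower in both NSC and iNSC than in MEF: Acta2 and Cyr61, and, chosen after the values and motifs were seen, Cnn2, Myl9 and Vcl for their CArG boxes and Amotl2 for its TEAD core. Capitals mark each TEAD core, GGAATG or its reverse complement CATTCC, and each exact CArG box. The exact box is CC, then 6 letters that are each A or T, then GG, and it reads alike on both strands. Boxes with 1 letter off this pattern are left in lower case. Each sequence runs 5′ to 3′ on the strand of the gene and ends at the base before the start.
Acta2: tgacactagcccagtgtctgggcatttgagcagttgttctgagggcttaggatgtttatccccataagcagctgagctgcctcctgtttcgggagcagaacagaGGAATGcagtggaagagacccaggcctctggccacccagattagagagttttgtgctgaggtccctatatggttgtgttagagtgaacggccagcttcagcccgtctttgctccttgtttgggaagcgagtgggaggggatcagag
Cnn2: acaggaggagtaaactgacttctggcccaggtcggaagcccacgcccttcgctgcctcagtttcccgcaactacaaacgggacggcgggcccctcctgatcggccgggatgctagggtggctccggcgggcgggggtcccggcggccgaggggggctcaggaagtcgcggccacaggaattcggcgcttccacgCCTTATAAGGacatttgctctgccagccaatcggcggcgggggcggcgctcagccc
Myl9: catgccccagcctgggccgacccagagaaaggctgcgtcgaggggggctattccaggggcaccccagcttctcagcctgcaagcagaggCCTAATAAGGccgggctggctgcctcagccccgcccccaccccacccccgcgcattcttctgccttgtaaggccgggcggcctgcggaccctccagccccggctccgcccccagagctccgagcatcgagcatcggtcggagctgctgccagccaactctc
Vcl: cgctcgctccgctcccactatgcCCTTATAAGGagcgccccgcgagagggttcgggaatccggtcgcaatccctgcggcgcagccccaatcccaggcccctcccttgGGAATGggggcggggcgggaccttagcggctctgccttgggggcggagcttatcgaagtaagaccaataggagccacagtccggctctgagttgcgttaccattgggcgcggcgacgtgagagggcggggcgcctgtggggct
Cyr61: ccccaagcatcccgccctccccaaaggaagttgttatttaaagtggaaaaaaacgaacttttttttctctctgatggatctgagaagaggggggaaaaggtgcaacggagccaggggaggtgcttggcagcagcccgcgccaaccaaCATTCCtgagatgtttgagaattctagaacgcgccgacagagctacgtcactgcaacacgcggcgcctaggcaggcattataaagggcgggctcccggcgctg
Amotl2: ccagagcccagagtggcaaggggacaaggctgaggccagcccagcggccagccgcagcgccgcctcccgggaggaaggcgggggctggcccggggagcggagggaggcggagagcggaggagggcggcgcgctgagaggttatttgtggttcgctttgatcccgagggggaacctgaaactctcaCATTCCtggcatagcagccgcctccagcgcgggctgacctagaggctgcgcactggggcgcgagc

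The Acta2 window lies at chr19:34255374-34255623 on the minus strand, with its TEAD core beginning 146 bases before the start. It holds no exact CArG box, but a pair with 1 letter off, ccctatatgg and ccttgtttgg, begin 84 and 34 bases before the start. Those of Cnn2 (chr10:79988350-79988599, plus strand) and Myl9 (chr2:156775214-156775463, plus strand) hold an exact CArG box beginning 56 and 161 bases before it, and Myl9 also holds ccttgtaagg, with 1 letter off, at 99. Vcl (chr14:20929148-20929397, plus strand) holds both elements, the CArG box 227 and the TEAD core 143 bases before the start, with no overlap between them. Cyr61 (chr3:145649986-145650235, minus strand) and Amotl2 (chr9:102717554-102717803, plus strand) hold a TEAD core beginning 103 and 65 bases before it. Over all windows the exact CArG box was in 6 of 53 (11.3%), those of Acta1, Actc1, Cnn2, Myl9, Vcl and Srf, against 1.47% of the 32851 windows of all genes. With up to 1 letter off, a looser rule added after the data were seen, it was in 15 of 53 (28.3%), Acta2 among them, against 18.6%. The TEAD core was in 24 of 53 (45.3%) against 12.6%. The set includes genes known as targets of these factors, so the shares describe the set; a match is not shown to be a bound site, and a window without one says nothing of elements elsewhere.

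Most of these genes read far lower in NSC than in MEF. By limma, where a call needs both a p under 0.05 after Benjamini-Hochberg adjustment over all genes tested and a difference of 2-fold or more, 37 of the 47 were lower (78.7%), against 9.96% of all genes called lower, and 2 were higher (4.26%), against 8.72%. The 2 that rose were the TEAD genes Tead2 and Tead4. The 8 without a call were Actc1, Tagln2, Mylk, Csrp2, Srf, Mkl2, Yap1 and Wwtr1. The median difference of the 47 was -2.18 on the log2 scale, against 0.045 over all genes. Within a group, the SD over 3 arrays had a median across the 47 genes of 0.11 in MEF, 0.12 in NSC, 0.094 in iNSC1 and 0.12 in iNSC2. With no fold minimum 42 were lower and 3 higher, against 23.9% and 27.9% of all genes. On every NSC array 42 genes read below every MEF array and 3 above, against 25.6% and 31.3%. In a culture measured as a whole, fewer cells of a type and less RNA per cell cannot be told apart.

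Against MEF the induced cells also read lower in most of these genes. In the mean of iNSC1 and iNSC2 minus MEF, 34 of 47 were lower (72.3%), against 10.9% of all genes, and the same 2 TEAD genes were higher (4.26%), against 8.21%, with a median of -1.87 against 0.061. The 3 genes lower in NSC but without a call in iNSC were Actn4, Pdlim7 and Tead3. With no fold minimum 40 were lower and 5 higher, against 26.6% and 29.3%. On every induced array 38 read below every MEF array and 5 above, against 23.6% and 25.6% of all genes. Both comparisons use the same MEF arrays, so their similarity is no separate evidence; the induced cells and NSC are set against each other directly further on. The MEF group mean was the highest of the 4 in 41 of the 47 genes (87.2%), against 31.6% of all genes. The exceptions were Tagln2, Mylk, Pdlim7, Csrp2, Tead2 and Tead4. NSC was most often the lowest of the 4, in 24 genes (51.1%, against 23.2% of all genes). It was followed by iNSC1 in 17 (36.2% against 18.9%), MEF in 4 (8.51% against 42.5%) and iNSC2 in 2 (4.26% against 15.4%). This order rests on group means alone and was not tested. In some genes, such as Tagln and Cnn1, the NSC, iNSC1 and iNSC2 arrays overlapped.

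**Figure D1:**
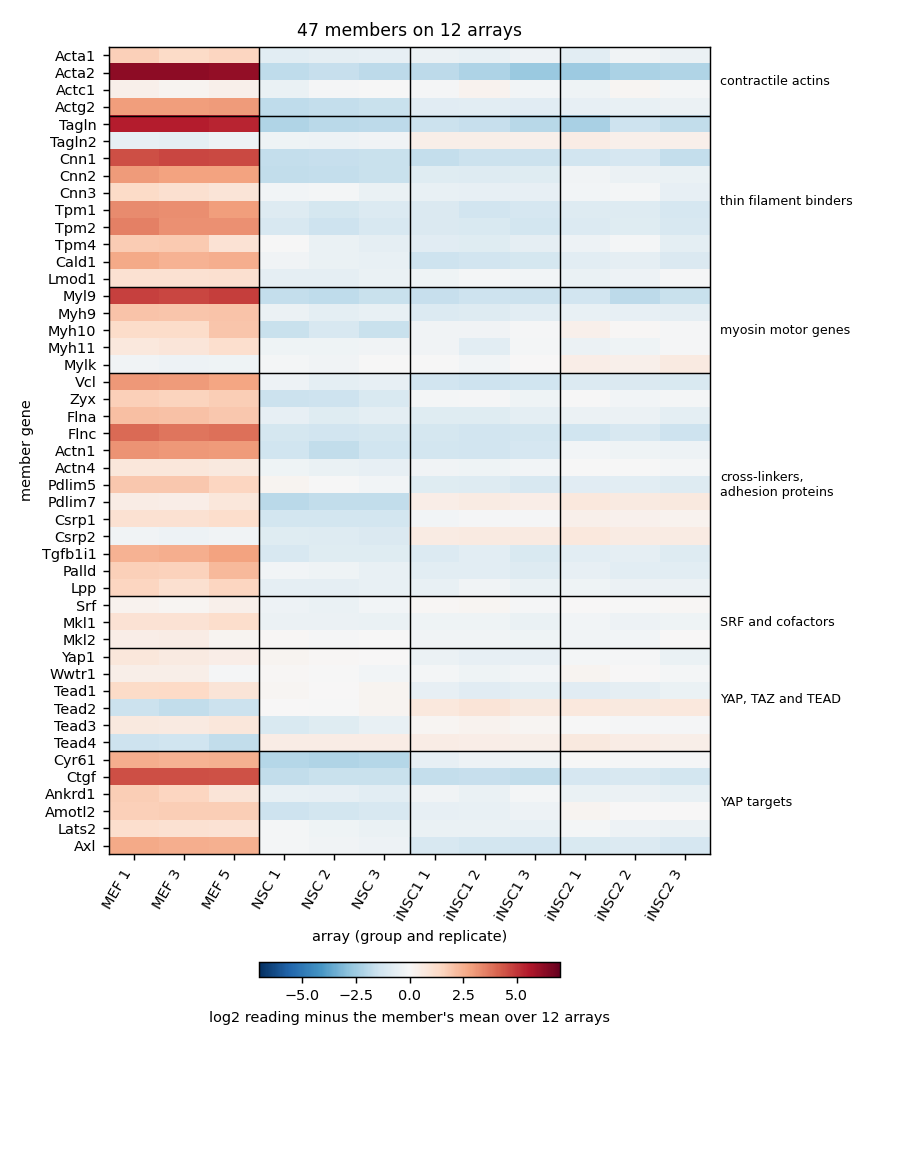
Log2 reading of each of the 47 genes (rows, ordered by role) on each of the 12 arrays (columns), minus the gene's mean over the 12 arrays; red is above and blue below that mean. The MEF columns hold the highest group mean for 41 genes, while Tead2 and Tead4 are blue there and Tagln2, Mylk, Pdlim7 and Csrp2 have their highest mean in iNSC2.

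Markers of other cell types moved with the same comparison. Of all genes, 9.96% were lower and 8.72% higher in NSC, and 10.9% lower and 8.21% higher in iNSC. The fibroblast list averaged 9.07 to 9.45 across the MEF arrays and 5.05 to 5.22 across the others. Of 9 macrophage markers, 7 were lower in NSC and 8 in iNSC, and the list averaged 6.90 to 7.21 on the MEF arrays against 3.72 to 3.93 elsewhere. Of 6 measured pericyte markers, 4 were lower in each (6.66 to 6.88 on MEF arrays, 4.59 to 4.86 elsewhere). Among 7 smooth muscle markers, Smtn and Kcnmb1 were lower in both, Ppp1r14a in iNSC, and Des higher in NSC. The smooth muscle list averaged 5.35 to 5.43 on MEF arrays and 4.51 to 4.93 elsewhere. Myocd, the cofactor that defines smooth muscle, had group means of 2.87 to 3.22. Smtn, Synpo2, Ppp1r14a and Ldb3 also stand in the list of filament partners below. None of 8 skeletal muscle markers was called in either comparison by limma (0 lower and 1 higher in NSC, 0 lower and 3 higher in iNSC at an unadjusted p under 0.05). Of the cardiac list 1 of 7 (14.3%) was higher in iNSC, and of the endothelial list 2 of 5 (40%) in NSC and 1 (20%) in iNSC. Of 8 measured pluripotent markers 4 were higher in NSC and 6 in iNSC (4.01 to 4.16 on MEF arrays, 6.91 to 7.34 elsewhere), and of 7 epithelial markers 1 and 3, with Krt19 at 1.44 and 3.82. The part of these other cells in the results was not tested.

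Of the 4 contractile actins, the filament subunits of muscle and of stress fibres, 3 were lower in both NSC and iNSC than in MEF: Acta1, Acta2 and Actg2. Acta2 read 13.07, 13.11 and 12.97 in MEF, 5.06, 5.20 and 5.00 in NSC, 5.01, 4.66 and 4.21 in iNSC1 and 4.28, 4.63 and 4.72 in iNSC2. Its MEF arrays stood far above all the others, NSC lay above iNSC2, and iNSC1 overlapped both. The NSC minus MEF difference of this smooth muscle actin, the standard mark of contractile fibroblasts, was -7.96 ± 0.16 (SE, adjusted p = 5.46e-17), a 249-fold difference, and the iNSC minus MEF difference -8.46 ± 0.14 (SE, adjusted p = 2.59e-18). The deposited annotation puts its probe set on chromosome 19 from 34315581 to 34329826, minus strand, in a build not given in the sources used here.

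Actg2 read 9.67, 9.65 and 9.69 in MEF, 4.92, 5.07 and 5.15 in NSC, 5.95, 5.98 and 5.93 in iNSC1 and 6.13, 6.22 and 6.32 in iNSC2. All 4 groups of this enteric smooth muscle actin were separate, in the order MEF, iNSC2, iNSC1, NSC. It differed by -4.62 ± 0.091 (SE, adjusted p = 5.46e-17) in NSC and -3.59 ± 0.078 (SE, adjusted p = 1.07e-16) in iNSC. Acta1, the skeletal muscle actin, read 8.03 to 8.36 in MEF and 5.95 to 6.40 on the other arrays (differences -2.16 and -1.96). Actc1, the cardiac actin, differed by -0.48 (95% confidence interval -0.78 to -0.18) in NSC and -0.35 (95% confidence interval -0.61 to -0.10) in iNSC, short of 2-fold, and its iNSC1 arrays overlapped those of MEF. The coding sequences of these actins are nearly alike, so their probes may partly share signal. The cytoplasmic actins, which are in every cell and not in the set, were added after their values were seen. Actb differed by -0.34 in NSC and -0.22 in iNSC, and was not called. Actg1 was lower in NSC (-1.52) and differed by -0.87 in iNSC, without a call.

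Among the 10 thin filament binders, 9 were lower in both NSC and iNSC, Tagln2 being the exception. They include transgelin and the calponins, which decorate contractile filaments, and the tropomyosins, which lie along the filament and steady it. Tagln read 11.32, 11.32 and 11.15 in MEF, 3.72, 3.89 and 3.95 in NSC, 4.30, 4.21 and 3.85 in iNSC1 and 3.52, 4.35 and 4.07 in iNSC2. MEF lay far above the other 3 groups, which overlapped. Cnn1 read 10.17, 10.32 and 10.26 in MEF, 3.97, 4.01 and 4.09 in NSC, 3.96, 4.13 and 4.12 in iNSC1 and 4.34, 4.47 and 3.96 in iNSC2. The pattern was again one of MEF against overlapping groups, with differences of -7.41 ± 0.17 (SE, adjusted p = 3.21e-16) for Tagln and -6.22 ± 0.12 (SE, adjusted p = 5.47e-17) for Cnn1 in NSC. In iNSC the corresponding values were -7.22 ± 0.15 (SE, adjusted p = 4.51e-17) and -6.09 ± 0.11 (SE, adjusted p = 7.63e-18). The arrays carry no detection call, so whether the low readings of Tagln, Cnn1 and other genes near 4 stand above background is not known, and the folds there depend on it.

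Cnn2 read 11.22, 11.06 and 11.07 in MEF, 6.52, 6.56 and 6.71 in NSC, 7.40, 7.36 and 7.41 in iNSC1 and 8.01, 7.83 and 7.81 in iNSC2. This calponin of non-muscle cells had 4 separate groups, in the order MEF, iNSC2, iNSC1, NSC, and differed from MEF by -4.52 ± 0.083 (SE, adjusted p = 2.36e-17) in NSC and -3.48 ± 0.072 (SE, adjusted p = 5.99e-17) in iNSC. Cald1 read 8.72, 8.51 and 8.59 in MEF, 5.80, 5.59 and 5.55 in NSC, 4.62, 4.72 and 4.84 in iNSC1 and 5.34, 5.41 and 5.04 in iNSC2. Caldesmon, which holds back the actin-activated myosin motor, also had no overlap, but here NSC lay above both induced sets (differences -2.96 and -3.62). Tagln2 read 8.27, 8.21 and 8.49 in MEF, 8.51, 8.46 and 8.59 in NSC, 9.21, 9.23 and 9.19 in iNSC1 and 9.32, 9.19 and 9.20 in iNSC2. This broadly expressed transgelin was the one binder highest in the induced cells: it differed from MEF by 0.90 (95% confidence interval 0.75 to 1.05) in iNSC, just under 2-fold, and by 0.20 (95% confidence interval 0.03 to 0.37) in NSC, where the arrays overlapped.

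The tropomyosins Tpm1 (-4.19 in NSC, -4.23 in iNSC) and Tpm2 (-4.52 and -4.35) were lower, as was Tpm4 (-1.91 and -2.11). The probe set that stands for Tpm4 is placed on chromosome 17 by the deposited annotation although the gene is on chromosome 8; a dimmer one on chromosome 8 gave -1.68 and -1.88. Cnn3, a calponin of many tissues, differed by -1.37 and -1.53. Lmod1, a leiomodin that starts new filaments in smooth muscle, differed by -1.65 and -1.34. Every MEF array lay above every other array for these 5 genes.

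Of the 5 myosin motor genes, 4 were lower in both NSC and iNSC; Mylk was the exception. Myl9 read 11.26, 11.12 and 11.28 in MEF, 4.82, 4.69 and 4.88 in NSC, 4.84, 5.03 and 4.95 in iNSC1 and 5.12, 4.65 and 4.92 in iNSC2. Myl9 encodes the regulatory light chain of contractile cells, through whose phosphorylation the motor is switched on, and only MEF stood apart. It differed by -6.42 ± 0.11 (SE, adjusted p = 1.76e-17) in NSC, 85.8-fold, and by -6.30 ± 0.099 (SE, adjusted p = 2.25e-18) in iNSC. Myh10 read 7.40, 7.36 and 8.03 in MEF, 4.53, 4.97 and 4.57 in NSC, 5.83, 5.84 and 6.00 in iNSC1 and 6.43, 6.19 and 6.04 in iNSC2. This non-muscle heavy chain IIB was separate in every group, with MEF above iNSC2, iNSC1 and then NSC; MEF replicate 5 read higher than its fellows. It differed by -2.91 ± 0.16 (SE, adjusted p = 5.81e-11) and -1.54 ± 0.14 (SE, adjusted p = 3.32e-08).

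Myh9, the non-muscle heavy chain IIA, read 10.33 to 10.38 in MEF and 7.38 to 7.98 elsewhere, differing by -2.52 in NSC and -2.72 in iNSC. Myh11, the smooth muscle heavy chain, read only 5.63 to 6.09 in MEF and differed by -1.18 and -1.23. Mylk read 4.54, 4.45 and 4.49 in MEF, 4.69, 4.57 and 4.81 in NSC, 4.80, 4.64 and 4.85 in iNSC1 and 5.30, 5.18 and 5.43 in iNSC2. For this kinase, which phosphorylates the light chain, iNSC2 was the highest group and MEF the lowest, without overlap between MEF and any other array. Its differences from MEF were 0.20 (95% confidence interval -0.04 to 0.44) in NSC and 0.54 (95% confidence interval 0.33 to 0.75) in iNSC, neither of them called.

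The cross-linkers and adhesion proteins tie filaments to one another and to the membrane. Of these 13 genes, 12 were lower in NSC and 10 in iNSC. Flnc read 9.71, 9.54 and 9.65 in MEF, 4.53, 4.46 and 4.55 in NSC, 4.53, 4.42 and 4.50 in iNSC1 and 4.37, 4.65 and 4.35 in iNSC2. Filamin C, the muscle form of this cross-linker, was high in MEF alone, with differences of -5.12 ± 0.11 (SE, adjusted p = 9.21e-17) and -5.16 ± 0.091 (SE, adjusted p = 8.57e-18). Actn1 read 10.66, 10.57 and 10.47 in MEF, 6.13, 5.77 and 6.13 in NSC, 6.21, 6.16 and 6.32 in iNSC1 and 7.33, 7.23 and 7.13 in iNSC2. The alpha-actinin of stress fibres had 4 separate groups, with iNSC2 above iNSC1 and iNSC1 just above NSC. It differed from MEF by -4.56 ± 0.10 (SE, adjusted p = 3.37e-16) in NSC and -3.84 ± 0.090 (SE, adjusted p = 2.72e-16) in iNSC.

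Pdlim7 read 8.94, 8.84 and 9.21 in MEF, 6.50, 6.67 and 6.68 in NSC, 8.85, 8.98 and 8.88 in iNSC1 and 9.15, 9.04 and 9.11 in iNSC2. This scaffold that links kinases to actin fibres was low in NSC alone: the induced arrays overlapped MEF. It differed by -2.38 ± 0.093 (SE, adjusted p = 3.7e-13) in NSC and by 0.0032 (95% confidence interval -0.17 to 0.17) in iNSC. Csrp2 read 6.90, 6.78 and 6.90 in MEF, 6.29, 6.23 and 6.16 in NSC, 7.71, 7.78 and 7.80 in iNSC1 and 7.89, 7.71 and 7.75 in iNSC2. For this LIM protein of smooth muscle NSC was again the lowest and the induced sets, which overlapped each other, the highest. Its differences from MEF were -0.63 (95% confidence interval -0.81 to -0.45) and 0.91 (95% confidence interval 0.76 to 1.07), both short of 2-fold. Csrp1, its relative, read 11.54 to 11.73 in MEF, 9.21 on each NSC array, 10.31 to 10.43 in iNSC1 and 10.75 to 10.85 in iNSC2. The groups of Csrp1 were separate, but its iNSC difference of -1.02 barely passed 2-fold and was -0.96, short of it, without MEF replicate 5.

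Vinculin (Vcl), which couples integrin adhesions to actin, read 9.49 to 9.76 in MEF and 5.24 to 6.35 elsewhere, and differed by -3.48 and -4.15. Tgfb1i1, an adhesion protein also known as Hic-5, differed by -3.56 and -3.45. Zyxin (Zyx), which gathers on strained fibres, differed by -2.97 in NSC and -1.79 in iNSC. Filamin A (Flna) differed by -2.70 and -2.65, Palld, the bundling protein palladin, by -2.19 and -2.58, and Lpp, a zyxin relative, by -1.98 and -1.79. Pdlim5, a LIM scaffold, differed by -1.78 in NSC and -2.65 in iNSC. The smallest of the 12 falls in NSC was that of the alpha-actinin Actn4 (-1.20), whose iNSC difference of -0.92 was not called.

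**Figure D2:**
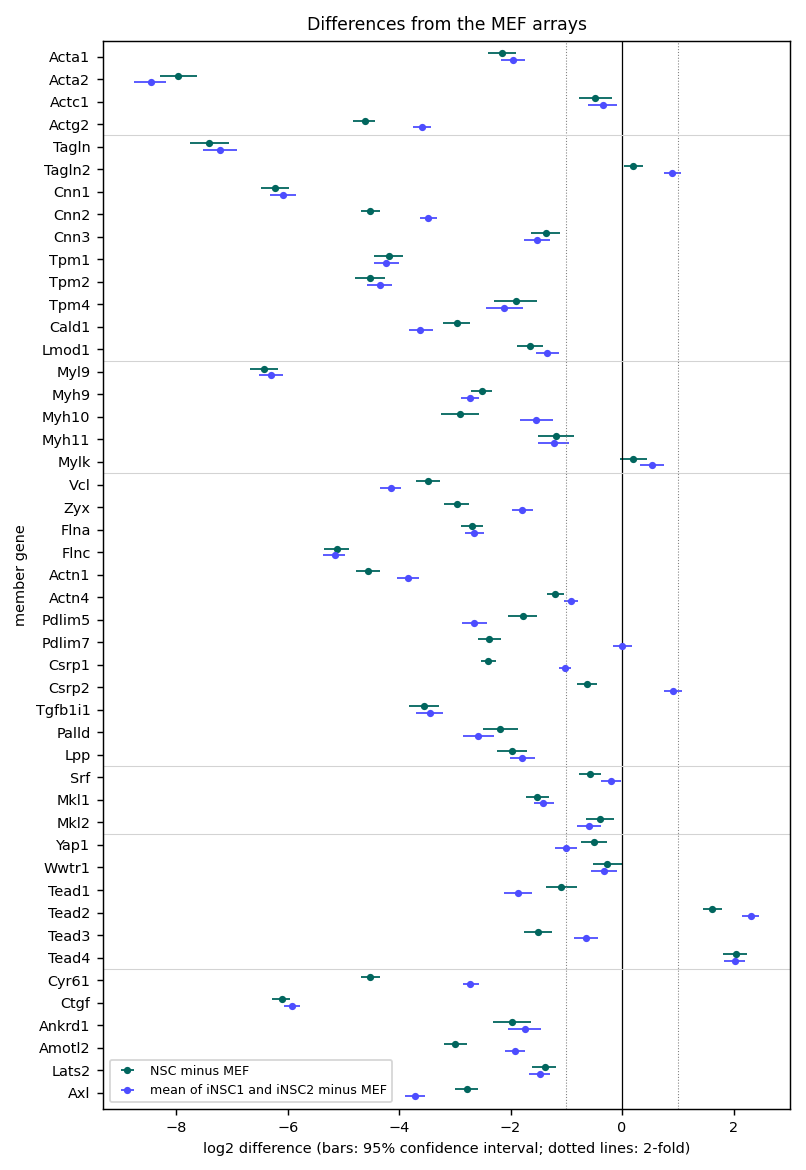
Log2 difference from MEF of each of the 47 genes in NSC (green) and in the mean of iNSC1 and iNSC2 (blue), with 95% confidence intervals; dotted lines mark 2-fold and grey lines separate the roles. Acta2 lies furthest left (-7.96 and -8.46), Tead2 and Tead4 are the 2 genes past 2-fold on the right, and Pdlim7 shows the widest gap between the green and blue points.

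Of the SRF group, which holds the factor and its cofactor genes, 1 of 3 was called: Mkl1 was lower in both NSC and iNSC, while Srf and Mkl2 differed from MEF by less than 2-fold. Srf read 7.90, 7.80 and 8.03 in MEF, 7.30, 7.21 and 7.50 in NSC, 7.77, 7.82 and 7.60 in iNSC1 and 7.68, 7.67 and 7.77 in iNSC2. Srf in MEF lay above NSC and overlapped iNSC1, with differences of -0.57 (95% confidence interval -0.78 to -0.37) in NSC and -0.19 (95% confidence interval -0.37 to -0.016) in iNSC. Mkl1 read 7.44, 7.44 and 7.64 in MEF, 6.00, 6.00 and 5.93 in NSC, 6.09, 6.11 and 5.97 in iNSC1 and 6.25, 6.05 and 6.10 in iNSC2. MRTF-A was lower in every non-MEF array, by -1.52 ± 0.096 (SE, adjusted p = 2.7e-10) in NSC and -1.41 ± 0.083 (SE, adjusted p = 7.55e-11) in iNSC. Mkl2 read 6.17, 6.25 and 5.89 in MEF, 5.80, 5.61 and 5.71 in NSC, 5.48, 5.47 and 5.42 in iNSC1 and 5.45, 5.53 and 5.74 in iNSC2. For MRTF-B every MEF array read above every other array, with differences of -0.40 (95% confidence interval -0.65 to -0.15) in NSC and -0.59 (95% confidence interval -0.80 to -0.38) in iNSC; its other probe set gave -0.12 and -0.39.

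YAP and TAZ, the cofactors, were not called in either comparison, and the TEAD factors that they bind moved in opposite directions. Yap1 read 8.31, 8.12 and 7.97 in MEF, 7.73, 7.62 and 7.55 in NSC, 7.08, 6.95 and 6.93 in iNSC1 and 7.39, 7.41 and 7.05 in iNSC2. MEF was highest and iNSC1 lowest, with iNSC1 and iNSC2 overlapping. Yap1 differed by -0.50 (95% confidence interval -0.73 to -0.27) in NSC and by -0.999 (95% confidence interval -1.20 to -0.80) in iNSC, a value just short of 2-fold that passed it when any of 5 single arrays was left out. Wwtr1 read 8.18, 8.19 and 7.69 in MEF, 7.88, 7.78 and 7.60 in NSC, 7.67, 7.48 and 7.58 in iNSC1 and 7.97, 7.81 and 7.63 in iNSC2. All groups of this TAZ gene overlapped except MEF and iNSC1, and the differences were -0.27 (95% confidence interval -0.53 to 0.0021) and -0.33 (95% confidence interval -0.56 to -0.10).

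Tead1 read 7.13, 7.16 and 6.67 in MEF, 5.94, 5.79 and 5.97 in NSC, 5.23, 4.97 and 5.10 in iNSC1 and 4.98, 5.13 and 5.30 in iNSC2. Tead1 was lower in NSC (-1.09 ± 0.13, SE, adjusted p = 1.67e-06) and in iNSC (-1.87 ± 0.12, SE, adjusted p = 1.44e-10), with only the induced sets overlapping. Tead2 read 7.64, 7.45 and 7.67 in MEF, 9.17, 9.13 and 9.33 in NSC, 9.90, 10.04 and 9.84 in iNSC1 and 9.89, 9.84 and 9.87 in iNSC2. Tead2, known as a TEAD gene of early embryonic and neural progenitor cells, ran the other way: MEF was lowest, NSC intermediate and the induced sets highest. It differed by 1.62 ± 0.081 (SE, adjusted p = 1.11e-11) and 2.31 ± 0.070 (SE, adjusted p = 7.68e-15).

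Tead3 read 7.07, 7.04 and 7.22 in MEF, 5.35, 5.57 and 5.87 in NSC, 6.54, 6.67 and 6.53 in iNSC1 and 6.37, 6.31 and 6.33 in iNSC2. For Tead3 the 4 groups were separate, and NSC was lowest: -1.51 ± 0.12 (SE, adjusted p = 4.35e-09) in NSC against -0.65 (95% confidence interval -0.87 to -0.44) in iNSC, the second without a call. Tead4 read 5.73, 5.78 and 5.44 in MEF, 7.68, 7.71 and 7.66 in NSC, 7.69, 7.65 and 7.56 in iNSC1 and 7.86, 7.66 and 7.57 in iNSC2. Tead4, known from the trophectoderm of the early embryo and from muscle, was lower in MEF than on every other array, and the other groups overlapped. It differed by 2.04 ± 0.10 (SE, adjusted p = 1.28e-11) in NSC and 2.02 ± 0.089 (SE, adjusted p = 1.33e-12) in iNSC.

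**Figure D3:**
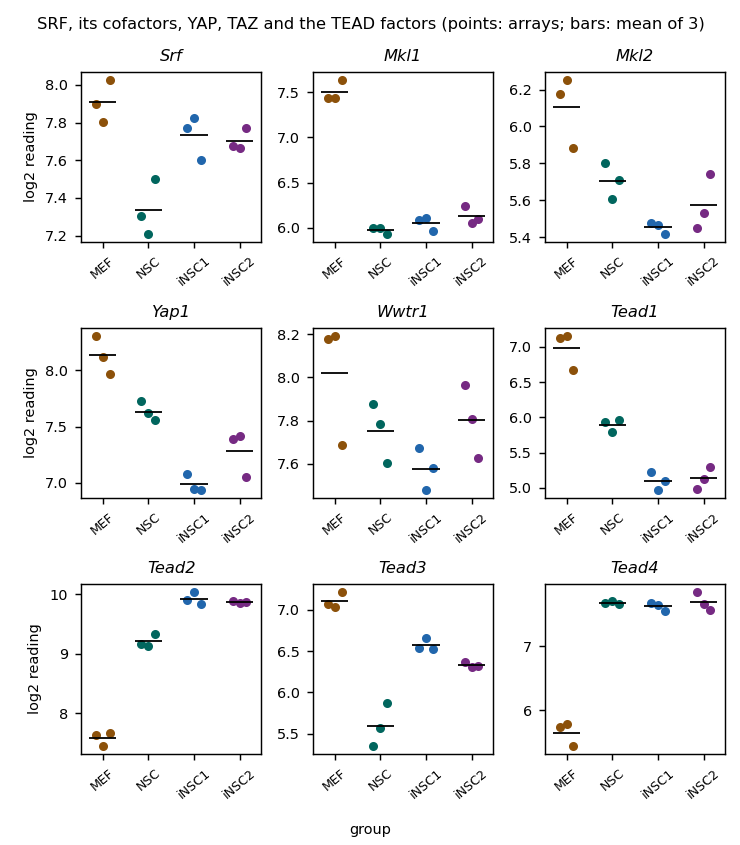
Log2 readings of Srf, its cofactor genes Mkl1 and Mkl2, Yap1, the TAZ gene Wwtr1 and the 4 TEAD genes on each array (points) by group, with the mean of 3 arrays (bars); each panel has its own axis, which does not start at 0. Tead2 and Tead4 are lowest in MEF, whereas Mkl1 and Tead1 are highest there and Wwtr1 overlaps between most groups.

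All 6 YAP target genes were lower in both NSC and iNSC than in MEF. Ctgf read 12.55, 12.54 and 12.52 in MEF, 6.33, 6.47 and 6.47 in NSC, 6.38, 6.45 and 6.30 in iNSC1 and 6.85, 6.91 and 6.78 in iNSC2. The secreted matrix protein CTGF was high in MEF alone; NSC and iNSC1 overlapped and iNSC2 lay slightly above them. It differed by -6.11 ± 0.078 (SE, adjusted p = 2.92e-19) in NSC, 69.2-fold, and by -5.92 ± 0.067 (SE, adjusted p = 6e-20) in iNSC. Cyr61 read 11.44, 11.30 and 11.35 in MEF, 6.86, 6.77 and 6.89 in NSC, 8.32, 8.53 and 8.59 in iNSC1 and 8.85, 8.81 and 8.79 in iNSC2. Its relative CYR61 had 4 separate groups, the induced sets lying between MEF and NSC, with differences of -4.52 ± 0.079 (SE, adjusted p = 1.48e-17) and -2.72 ± 0.069 (SE, adjusted p = 7.55e-16).

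Amotl2 read 9.28, 9.29 and 9.33 in MEF, 6.15, 6.30 and 6.46 in NSC, 6.99, 7.04 and 7.22 in iNSC1 and 7.76, 7.59 and 7.64 in iNSC2. This angiomotin relative, which binds YAP and restrains it, had the same order of separate groups, and differed by -2.99 ± 0.094 (SE, adjusted p = 2.18e-14) and -1.93 ± 0.082 (SE, adjusted p = 7.76e-13). Axl, a receptor tyrosine kinase for Gas6, read 9.94 to 10.13 in MEF and 6.13 to 7.36 elsewhere, differing by -2.78 in NSC and -3.71 in iNSC. Ankrd1, a nuclear ankyrin repeat protein of stretched muscle, differed by -1.98 and -1.75. Lats2, the Hippo kinase that closes the loop by inhibiting YAP, differed by -1.39 and -1.48.

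The genes around these circuits were counted in lists by role, and each share can be read against the 9.96% of all genes lower in NSC and 10.9% lower in iNSC. Of 22 other filament and myosin partners, 8 were lower in NSC (36.4%) and 8 in iNSC (36.4%). Those in NSC included Pdlim1 (-4.66), Synpo (-2.78) and the myosin light chain Myl6 (-2.57); in iNSC Pdlim1 (-1.33) and Myl6 (-2.20) were lower too, while Synpo differed by 0.46, without a call. Of 23 measured focal adhesion genes, 9 were lower in NSC (39.1%) and 10 in iNSC (43.5%), and the LIM proteins Fhl1 (-4.47), Fhl2 (-3.50) and Fhl3 (-2.61) led them in NSC. Their medians were -0.43 and -0.52 for the filament partners, and -0.78 and -0.79 for the focal adhesion genes.

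Of 21 Hippo kinases and regulators, 4 were lower (19.0%) and 1 higher (4.76%) in NSC. In iNSC 5 were lower (23.8%) and 1 higher (4.76%), and the medians were 0.028 and -0.19. Of all genes, 8.72% were higher in NSC and 8.21% in iNSC. The lower ones in NSC included Vgll3, a cofactor that also binds TEAD (-3.80), Amot (-1.58) and Wwc2 (-1.36). A further 21 measured YAP targets gave 15 lower (71.4%) and 2 higher (9.52%) in NSC. In iNSC they gave 14 lower (66.7%) and 2 higher (9.52%), and the medians were -2.04 and -2.32. They were led by Ccdc80 (-6.03), F3, tissue factor (-5.44), and Myof (-3.89). Of 14 MRTF and SRF partners, 3 (21.4%) were lower in NSC, namely Elk3 (-2.75), Gata6 (-1.06) and Fosl1 (-1.01), and 2 (14.3%) in iNSC, with medians of 0.0023 and -0.032.

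The induced cells did not match NSC in every gene of the set. In the mean of iNSC1 and iNSC2 minus NSC, which uses no MEF array, 9 of the 47 were higher (19.1%), against 2.91% of all genes called higher, and 0 were lower by limma, against 3.65% (9 lower at an unadjusted p under 0.05). The 9 higher genes were the actin Actg2, the calponin Cnn2, the myosin Myh10, the adhesion proteins Zyx, Pdlim7, Csrp1 and Csrp2, and the YAP targets Cyr61 and Amotl2. The median difference of the 47 was 0.14, against 0.008. With no fold minimum 18 were higher (38.3%) and 8 lower, against 16.4% and 19.3% of all genes.

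Pdlim7 differed most, by 2.38 ± 0.080 (SE, adjusted p = 1.59e-13), a 5.22-fold difference, and every induced array read at least 8.85 where no NSC array passed 6.68. Cyr61 followed with 1.81 ± 0.069 (SE, adjusted p = 7.58e-13), from 6.77 to 6.89 in NSC to 8.32 to 8.59 in iNSC1 and 8.79 to 8.85 in iNSC2. The paralogs Csrp1 (1.38 ± 0.055, SE, adjusted p = 1.32e-12) and Csrp2 (1.55 ± 0.074, SE, adjusted p = 1.41e-11) were both higher in iNSC. Of the heavy chains, Myh10 was higher (1.37 ± 0.14, SE, adjusted p = 4.61e-07), while Myh9 (-0.20, 95% confidence interval -0.37 to -0.035) and Myh11 (-0.046, 95% confidence interval -0.32 to 0.23) were not called. Zyx was higher by 1.18 ± 0.090 (SE, adjusted p = 8.36e-09) and Cnn2 by 1.04 ± 0.072 (SE, adjusted p = 2.21e-09). Amotl2 (1.07 ± 0.082, SE, adjusted p = 8.54e-09) and Actg2 (1.04 ± 0.078, SE, adjusted p = 7.29e-09) were close to 2-fold, and without NSC replicate 1 they fell short of it, at 0.99 and 0.97. Over the whole set, 15 of 47 genes (31.9%) read higher on every induced array than on every NSC array, against 15.5% of all genes, and 7 (14.9%) lower, against 17.5%.

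Acta2, Tagln, Cnn1, Myl9 and Ctgf, which mark the contractile fibroblast, did not differ by 2-fold between iNSC and NSC. Apart from Ctgf, they read low in NSC and both induced sets. Group means there were 3.86 to 4.12 for Tagln, 4.02 to 4.25 for Cnn1, 4.54 to 5.09 for Acta2 and 4.80 to 4.94 for Myl9. Whether these readings stand above background is not known. Groups that both read background would look alike whatever the cells. Acta2 differed by -0.50 (95% confidence interval -0.79 to -0.22), Tagln by 0.19 (95% confidence interval -0.11 to 0.50), Cnn1 by 0.14 (95% confidence interval -0.088 to 0.36), Myl9 by 0.12 (95% confidence interval -0.087 to 0.33) and Ctgf by 0.19 (95% confidence interval 0.048 to 0.33), all intervals lying within 1 log2 unit of 0. Below 2-fold on the low side, Axl differed by -0.93 (95% confidence interval -1.10 to -0.75), Pdlim5 by -0.86 (95% confidence interval -1.09 to -0.64), Tead1 by -0.78 (95% confidence interval -1.02 to -0.54), Vcl by -0.67 (95% confidence interval -0.86 to -0.48) and Cald1 by -0.65 (95% confidence interval -0.87 to -0.44). On the high side were Tead3 (0.86, 95% confidence interval 0.65 to 1.07), Actn1 (0.72, 95% confidence interval 0.53 to 0.91), Tagln2 (0.70, 95% confidence interval 0.56 to 0.85) and Tead2 (0.69, 95% confidence interval 0.54 to 0.84). Yap1 differed by -0.50 (95% confidence interval -0.70 to -0.30), Srf by 0.38 (95% confidence interval 0.20 to 0.56), Mkl1 by 0.12 (95% confidence interval -0.06 to 0.29) and Tead4 by -0.022 (95% confidence interval -0.21 to 0.17).

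**Figure D4:**
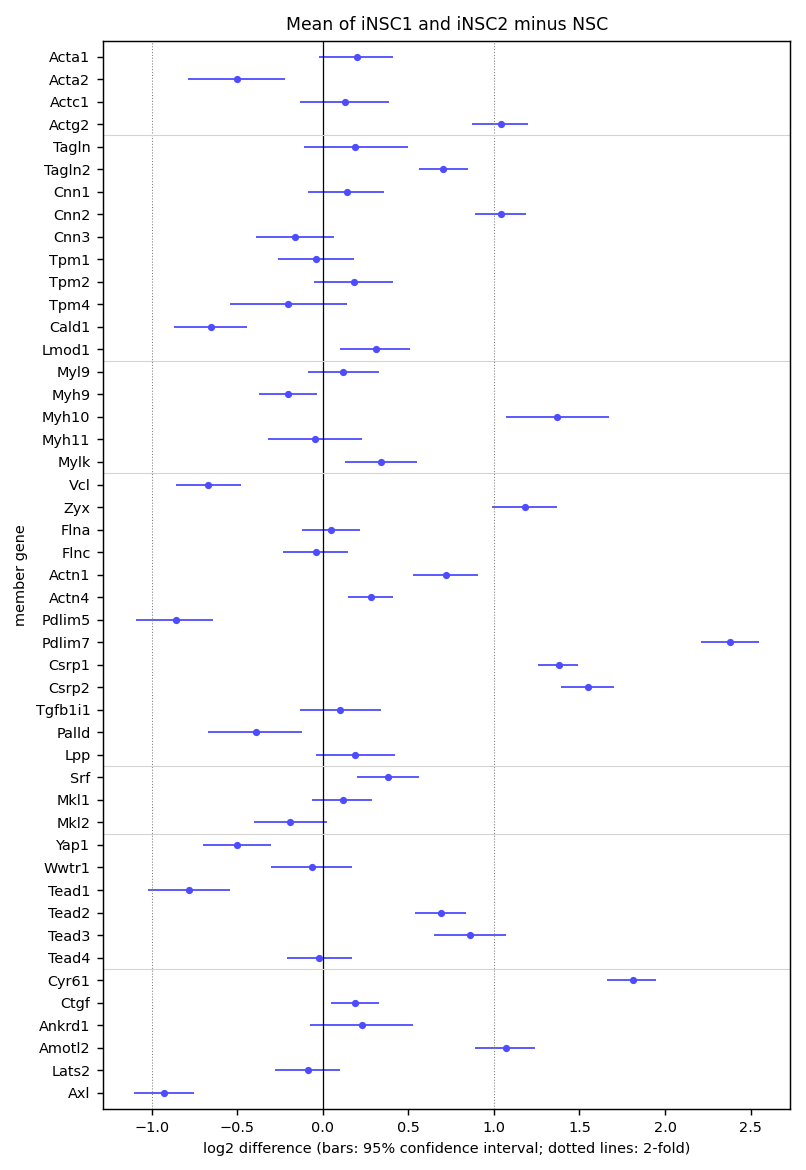
Log2 difference of the mean of iNSC1 and iNSC2 from NSC for each of the 47 genes, with 95% confidence intervals; dotted lines mark 2-fold. Pdlim7 (2.38) and Cyr61 (1.81) lie furthest right, 9 genes pass 2-fold on that side and 0 on the other.

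The lists of genes around the set were also counted in iNSC minus NSC, where 2.91% of all genes were higher and 3.65% lower. Of the filament and myosin partners 2 of 22 (9.09%) were higher, Pdlim1 (3.32 ± 0.081, SE, adjusted p = 2.81e-15) and Synpo (3.23 ± 0.13, SE, adjusted p = 1.2e-12), and 1 lower. Of the focal adhesion genes 2 of 23 (8.70%) were higher, with Lims2 at 2.02, and 1 lower, Tns3 (-1.52). Among the further YAP targets 1 of 21 (4.76%) was higher, Tgfb1 (2.33), and 2 (9.52%) lower, with Tgfb2 at -2.03. The Hippo list had 0 of 21 higher by limma (2 at an unadjusted p under 0.05) and 1 lower, the phosphatase gene Ptpn14 (-1.83). None of the 14 MRTF and SRF partners was called (at an unadjusted p under 0.05, 3 higher and 3 lower).

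Markers moved in the same comparison, iNSC minus NSC, where 2.91% of all genes were higher and 3.65% lower. Of 7 epithelial markers 3, the keratin genes Krt8, Krt14 and Krt19, were higher in iNSC than in NSC, and the list averaged 5.89 to 5.99 on the iNSC1 arrays, 5.76 to 5.84 on iNSC2, 4.97 to 5.14 on NSC and 4.62 to 4.67 on MEF. Epcam and Cdh1, the defining epithelial surface genes, differed by -0.38 and -0.25, without a call. Of the pluripotent list 2 of 8 measured genes were higher and 1 lower, of the pericyte list 1 of 6 higher and 1 lower, and of the endothelial list 2 of 5 lower. Of 7 smooth muscle markers 1 was lower, Des (-2.50), the muscle filament protein desmin (list averages 4.83 to 4.93 on NSC arrays, 4.51 to 4.54 on iNSC1 and 4.52 to 4.66 on iNSC2). Of 7 cardiac markers 1 was higher, the light chain gene Myl7 (1.87). Myl7 read 3.58 to 4.12 on NSC arrays, 5.51 to 5.80 on iNSC1 and 5.62 to 5.73 on iNSC2. The cardiac list averaged 4.39 to 4.58 on NSC arrays, 4.63 to 4.77 on iNSC1 and 4.70 to 4.78 on iNSC2. Of 9 macrophage markers 1 was lower, Cd68 (-1.07). Of 8 fibroblast markers 0 were called (limma; at an unadjusted p under 0.05, 1 higher and 2 lower). The part of such cells or states in the results was not tested.

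The genes of the set that passed the test between the 2 induced sets without a fold minimum read lower in iNSC1. In iNSC1 minus iNSC2, 0 of the 47 genes were called in either direction by limma at 2-fold, against 0.0877% of all genes higher and 0.0643% lower. The counts at an unadjusted p under 0.05 were 0 higher and 14 lower, with no share of all genes at that threshold to set beside them. At an adjusted p under 0.05 with no fold minimum, 8 of the 47 were lower in iNSC1 (17.0%), against 1.56% of all genes, and 0 higher, against 0.743%. On every array of iNSC1, 16 genes read below every array of iNSC2 (34.0%), against 8.62% of all genes, and 1, Tead3 (0.24, 95% confidence interval -0.0069 to 0.49, not called), above, against 9.3%. The median of the 47 was -0.16, against 0.004. Among the markers, Utf1 of the pluripotent list (2.38 ± 0.15, SE, adjusted p = 8.5e-08) and Krt8 of the epithelial list (1.04 ± 0.11, SE, adjusted p = 3.38e-05) were higher in iNSC1. With no fold minimum Krt19 (-0.56) and the fibroblast marker Fn1 (-0.57) were lower there. The pluripotent list averaged 7.20 to 7.34 on the iNSC1 arrays and 6.91 to 7.06 on those of iNSC2. Utf1 was the only gene called among the 8 measured in that list, and the median difference of the list was 0.03. The part of these states in the results was not tested.

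Actn1 differed most between the induced sets, by -0.999 ± 0.10 (SE, adjusted p = 3.37e-05), just short of 2-fold. Amotl2 (-0.58 ± 0.094, SE, adjusted p = 0.00222), Cyr61 (-0.34 ± 0.079, SE, adjusted p = 0.0297) and Ctgf (-0.47 ± 0.078, SE, adjusted p = 0.00252) are YAP targets. Cnn2 (-0.49 ± 0.083, SE, adjusted p = 0.00285), Cald1 (-0.54 ± 0.12, SE, adjusted p = 0.0188) and Csrp1 (-0.42 ± 0.064, SE, adjusted p = 0.00116) bind or cross-link filaments, and Mylk (-0.54 ± 0.11, SE, adjusted p = 0.0141) is the light chain kinase. For 5 of them, Actn1, Cnn2, Csrp1, Amotl2 and Cyr61, iNSC1 lay between NSC and iNSC2 without overlap. Acta2 (0.083, 95% confidence interval -0.25 to 0.41), Tagln (0.14, 95% confidence interval -0.22 to 0.50) and Myl9 (0.041, 95% confidence interval -0.20 to 0.28) were not called and had intervals on both sides of 0. Yap1 differed by -0.30 (95% confidence interval -0.53 to -0.067), Wwtr1 by -0.22 (95% confidence interval -0.49 to 0.044) and Srf by 0.028 (95% confidence interval -0.17 to 0.23), none of them called. What sets iNSC1 and iNSC2 apart is not in the labels, so the difference between them is given here as a difference between arrays.

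**Figure D5:**
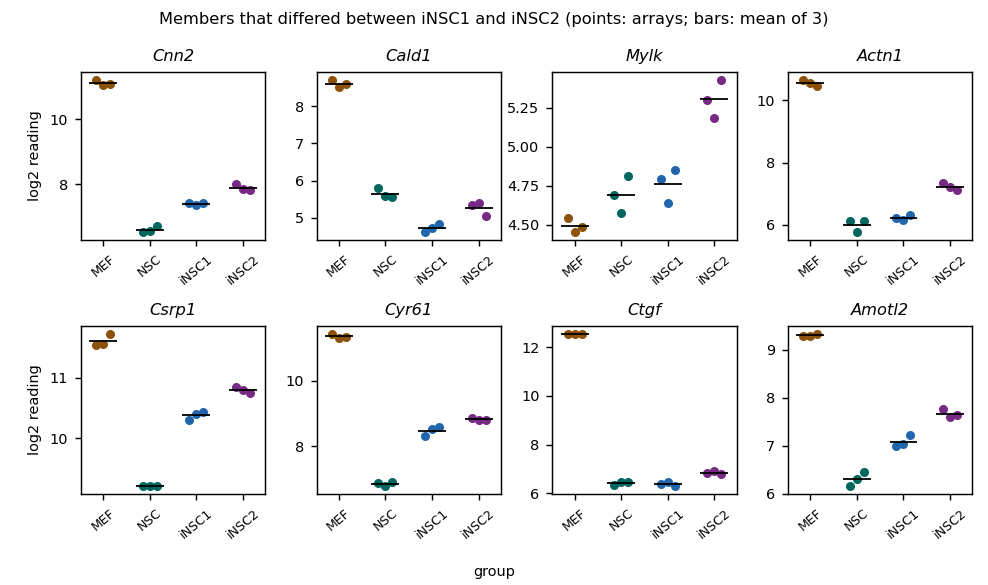
Log2 readings on each array (points) with the mean of 3 arrays (bars), by group, for the 8 genes that were lower in iNSC1 than in iNSC2 at an adjusted p under 0.05 with no fold minimum; each panel has its own axis, which does not start at 0. The iNSC1 points lie below the iNSC2 points in all 8 panels, with differences of the group means from -0.34 for Cyr61 to -0.999 for Actn1.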

How the data were processed

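Total RNA (300 ng per array) from the 12 samples was hybridised to 1-colour arrays. The deposited log2 values come from RMA (background correction, quantile normalisation, summary of probes), which the authors ran with Affymetrix Power Tools, as their processing notes state. Software versions and the genome build were not found in the labels or headers. Another deposited table, per the file headers, holds the authors' log2 ratios and p-values and the gene symbols; its 12 columns of values per array were not used. Of 28815 probe sets, 18403 had 1 symbol and the brightest per gene left 17103 genes. The symbols come from the 21774 probe sets of the annotated table, in each of which the highest of the iNSC, NSC and MEF means lay above a log2 value of 3, and below it in the 7041 others; all 47 genes are in it, and no other filter on low values was used. No depth exists for arrays, and their number, 3 a group, limits the precision.

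Group differences come from limma 3.58.1 (R 4.3.3), with 4 group means over 12 arrays, moderated with a trend (residual degrees of freedom 8, prior 8.7), two-sided, Benjamini-Hochberg over all 17103 genes, called at an adjusted p under 0.05 and 2-fold. The procedure was tested on simulated data. The genes and lists were chosen with earlier results of these data known. Values on every array are given, per role, for the 2 genes with the largest difference in NSC minus MEF, the 2 in iNSC minus NSC and the 1 in iNSC1 minus iNSC2, and for Srf, Mkl1, Mkl2, Yap1 and Wwtr1; from each pathway list, up to 3 and 2 called genes are named; 1 pathway list is not reported here. Alternatives were no fold minimum, a minimum level, other choices of probe set, median centring, only the groups compared, no trend, the replicate number as a block, the authors' table, each array left out, and, added after seeing the data, another Tpm4 probe set.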

Additional observations from a re-analysis of the deposited data

Results flagged for a closer look

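A difference between the 2 induced sets was found by limma, at an adjusted p under 0.05 with no fold minimum, for 8 of the 47 genes (17.0%), all lower in iNSC1 than in iNSC2 on every array. Of all genes, 1.56% were lower and 0.743% higher at this threshold, and 8.62% read lower on every array. The iNSC1 minus iNSC2 differences on the log2 scale were -0.999 for Actn1, -0.58 for Amotl2, -0.54 for Cald1, -0.54 for Mylk, -0.49 for Cnn2, -0.47 for Ctgf, -0.42 for Csrp1 and -0.34 for Cyr61. Their adjusted p-values ran from 3.37e-05 (Actn1) to 0.0297 (Cyr61).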

How the results depend on the processing

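No alternative turned the direction of a called gene. The counts of 37 lower and 2 higher in NSC minus MEF stayed at 37 and 2 without each array in turn; in iNSC minus MEF they were 34 to 35 and 2. In iNSC minus NSC, 7 to 9 were higher and 0 lower, the 7 without NSC replicate 1 through Actg2 (0.97) and Amotl2 (0.99); in iNSC1 minus iNSC2, 0 were higher and 0 to 1 lower. With no fold minimum 5 genes were higher in iNSC minus MEF, 18 higher and 8 lower in iNSC minus NSC, and 8 lower in iNSC1 minus iNSC2. Centring each array on its median gave 1 lower in iNSC1 minus iNSC2, Actn1 (-1.02), which also passed 2-fold without iNSC1 replicate 3 (-1.05), iNSC2 replicate 2 (-1.001) or iNSC2 replicate 3 (-1.05). In iNSC minus MEF, Csrp1 lost its call without MEF replicate 5 (-0.96), and Yap1 (-0.999) gained one without iNSC1 replicate 1 (-1.02), iNSC2 replicate 1 (-1.03), iNSC2 replicate 2 (-1.03), MEF replicate 3 (-1.01) or MEF replicate 5 (-1.08) and after median centring (-1.001). These genes lie at the fold minimum.

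Replicate numbers were taken from the sample titles (the deposited tables number the iNSC2 arrays differently). Of 15 pairs of arrays with the same number, 6 correlated above 0.1 (range -0.177 to 0.281). Pairs with unlike numbers ran from -0.309 to 0.276, the highest being iNSC2 replicate 3 with MEF replicate 5. The main fit used no pairing, and a shared order or batch was not tested. MEF replicate 5 shares its number with no other array, so it stood alone in its block. Shares of all genes called in the block fit are not given here. The fit with the replicate block gave 36 lower and 2 higher in NSC minus MEF, 34 and 2 in iNSC minus MEF, 0 lower and 9 higher in iNSC minus NSC and 0 in iNSC1 minus iNSC2; Myh11 (-0.98, NSC minus MEF) and Csrp1 (-0.97, iNSC minus MEF) lost their calls and Yap1 (-1.09) gained one. Restricting the genes to a highest group mean of at least 6 kept 44 of the 47. The authors' deposited table was not used for iNSC1 minus iNSC2, whose ratio is rounded there. Signal over background is unknown, so a low reading may be background and its fold is then understated.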
